A study of Mus musculus with 40 samples.

Results

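The genes described are the 30 genes of cholesterol synthesis, of its control by the SREBP2 pathway, and of sterol transport and removal that the table of 54331 genes holds. They were chosen by name, with earlier results of these data known. All 30 passed the filter on low values, which kept 21367 genes reading 10 or more in 4 or more of the 40 libraries. By role, 19 members encode synthesis enzymes (8 of the early mevalonate steps, 3 of the squalene steps and 8 of the late sterol steps), 6 belong to SREBP control and 5 to transport and removal.

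RNA came from the cerebellum of male mice of the strain given as C57BL6, fed either of a pair of diets, standard (SD) or ketogenic (KD), the latter being low in carbohydrate and rich in fat. Genotypes were labelled WT, INDY, CSB and DKO, and on SD there were 4 WT, 6 INDY, 6 CSB and 4 DKO libraries and on KD 4 WT, 6 INDY, 5 CSB and 5 DKO. Neither allele, age, diet duration nor the meaning of the library numbers is given in the sources used here, and nothing in them says that libraries are separate animals, so p-values measure only the spread between these libraries, which may be technical. INDY is a name of Slc13a5, a citrate carrier of the plasma membrane, and CSB is the Cockayne syndrome protein encoded by Ercc6, which acts in transcription-coupled DNA repair.

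Slc13a5 was listed at 82.1 to 161 in the WT and CSB libraries and below 1 in every INDY and DKO library, with an authors' normalised value as the unit. On SD, Ercc6 ranged from 489.5 to 663 in CSB and DKO libraries and from 735 to 1025 in WT and INDY libraries, and on KD the ranges overlapped. Defining cerebellar genes were high in 39 libraries: a list of 12 granule cell genes had a mean log2 level between 10.16 and 12.25. In library DKO SD 1 that level was 7.31 (summed value 8639.5, against 23172 to 104869.9 elsewhere), and 14 forebrain genes such as Neurod6 and Tbr1 stood at 9.98, the highest of all libraries. The forebrain level lay above 6.20, which is 1 log2 unit over the highest WT SD library, in 12 libraries, of which 3 were WT KD, 2 INDY SD, 2 INDY KD, 2 CSB KD, 2 DKO SD and 1 DKO KD.

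Cholesterol is built from acetyl-CoA. Cytosolic thiolase and HMG-CoA synthase open the mevalonate arm, farnesyl diphosphate is joined to squalene, squalene is closed to lanosterol, and the late enzymes trim lanosterol to cholesterol. The transcription factor SREBP2, encoded by Srebf2, is held in the endoplasmic reticulum by SCAP and the INSIG proteins when sterol is plentiful, and is otherwise cut free by the proteases encoded by Mbtps1 and Mbtps2. The brain makes its own cholesterol because lipoproteins do not cross the blood-brain barrier, myelin holds much of it, and neurons remove the excess as 24-hydroxycholesterol made by Cyp46a1.

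Upstream sequences are shown for 3 members: Hmgcs1 and Nsdhl, enzymes of the tightly co-varying group described below, and Stard5, the one member that passed the test in a comparison. They come from RefSeq on build GRCm38.p6, run 5′ to 3′ toward the gene, and lie at chr13:119690101-119690350 (+ strand), chrX:72918271-72918520 (+) and chr7:83631767-83631958 (+). Capitals mark the sterol regulatory element TCACNCCAC and the NF-Y box CCAAT on either strand.
Hmgcs1: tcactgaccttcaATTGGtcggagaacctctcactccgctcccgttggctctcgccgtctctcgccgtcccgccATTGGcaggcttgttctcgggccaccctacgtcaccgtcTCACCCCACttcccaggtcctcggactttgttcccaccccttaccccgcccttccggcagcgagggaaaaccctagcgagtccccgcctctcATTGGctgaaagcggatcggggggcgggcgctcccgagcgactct
Nsdhl: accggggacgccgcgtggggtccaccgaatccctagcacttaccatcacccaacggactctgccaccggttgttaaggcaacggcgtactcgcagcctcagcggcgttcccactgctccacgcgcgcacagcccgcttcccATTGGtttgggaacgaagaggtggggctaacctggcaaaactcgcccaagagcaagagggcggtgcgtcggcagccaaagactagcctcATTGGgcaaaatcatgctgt
Stard5: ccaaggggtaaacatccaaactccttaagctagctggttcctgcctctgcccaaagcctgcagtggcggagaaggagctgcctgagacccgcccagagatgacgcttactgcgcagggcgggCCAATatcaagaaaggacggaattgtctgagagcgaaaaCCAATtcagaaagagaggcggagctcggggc
The Hmgcs1 stretch held 1 sterol regulatory element and 3 NF-Y boxes, Nsdhl 2 NF-Y boxes, and Stard5 2 NF-Y boxes. The RefSeq table held promoter windows (250 bases before to 50 after the start) for 25 of the 30 members, and not for Abcg1, Fdft1, Fdps, Sqle and Stard4. Among these 25 members TCACNCCAC occurred in Hmgcs1 only, against 1.24% of all 32851 windows. CCAAT occurred in 64.5% of the members' 31 windows and in 37.4% of all windows, the Sp1 box GGGCGG, which is not capitalised above, in 80.6% and 35.7%, and the LXR element DR4 in 0 member windows and 0.0152% of all. The motifs were searched on both strands, no motif contains another, and a match is a description of letters only.

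Levels of the members in the libraries were moderate to high. The median over 40 libraries ran from 257 for Mvk, mevalonate kinase, to 6414 for Hmgcs1, HMG-CoA synthase, and the lowest value of any member was 124, for Stard5 in DKO SD 1. These are estimated read counts that grow with transcript length, so they do not rank the members against each other. The spread between libraries of a group, as a residual SD of log2(value + 1), had a median of 0.23 over members. It was lowest for the SREBP protease gene Mbtps1 at 0.09 and highest for Cyp46a1 at 0.52 and Tm7sf2 at 0.51, and 28 of 30 members lay under 0.35.

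Whether the ketogenic diet changes these genes was compared within each genotype. No member passed the test (adjusted p under 0.05, limma on log2(value + 1), Benjamini-Hochberg over 21367 genes) between KD and SD within any genotype or averaged over the 4 genotypes. The share of all tested genes called was 0% in WT, INDY and CSB, 0.00468% in DKO and 0% in the average, so few genes of any kind passed. In the average over genotypes, where 20 libraries stand on each side, the members' log2 differences ran from -0.17 to 0.11 with a median of -0.02. All 30 intervals (95%) lay between -0.49 and 0.42. At an unadjusted p under 0.05 there were 0 members and 3.16% of all genes.

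Within genotypes no single enzyme passed the threshold, and the signs of the differences were as follows. Of 19 synthesis members, 16 had a positive KD minus SD difference in WT (median 0.17), 0 in INDY (median -0.16), 5 in CSB (median -0.05) and 4 in DKO (median -0.07). The medians over all tested genes lay between -0.01 and 0.01, and the shares of all genes with an unadjusted p under 0.05 were 13.4%, 4.63%, 3.43% and 8.11% in the same order. One library carried much of the INDY value: without INDY KD 20, 3 of 19 had a positive difference and the median was -0.05. Without WT SD 41 the WT count was 13 and the median 0.08, and without WT KD 12 they were 18 and 0.26. The CSB and DKO signs turned with single libraries: in CSB 10 were positive (median 0.0025) without CSB SD 16 and 0 (median -0.11) without CSB KD 13, and in DKO 10 were positive (median 0.00064) without DKO SD 34.

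**Figure D1:**
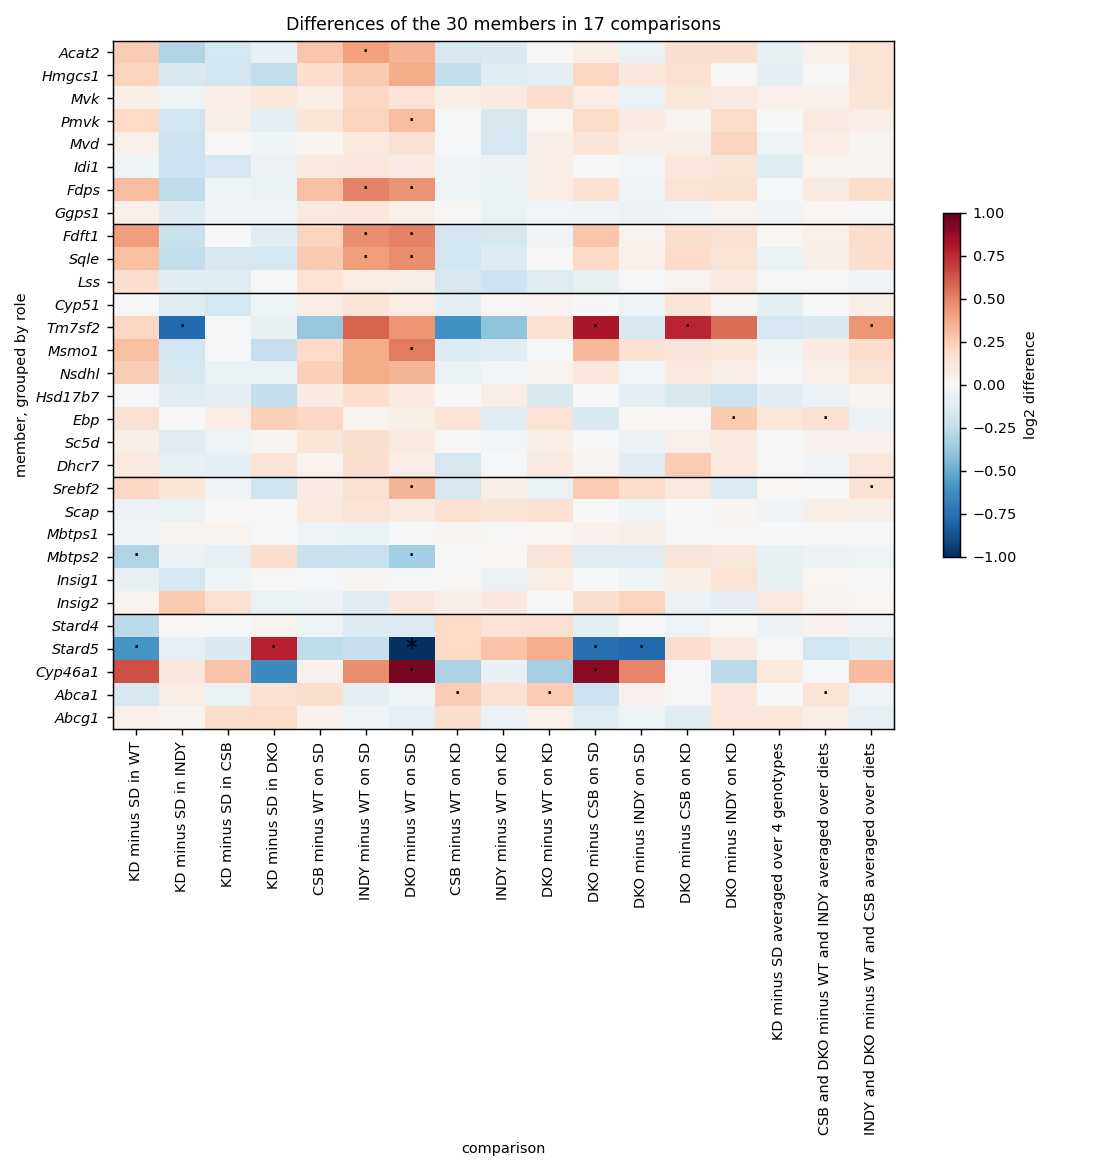
Log2 differences (colour, limited to 1 unit either way) of the 30 members, in rows grouped by role, in 17 comparisons, in columns. A dot marks an unadjusted p under 0.05 and the star an adjusted p under 0.05, which only Stard5 reached, in DKO minus WT on SD.

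The difference in diet response between INDY and WT was tested as an interaction. Every synthesis member had a negative estimate (19 of 19, median -0.29), 5 of them at an unadjusted p under 0.05, and no adjusted p was below 0.286. The share of all genes called was 0.014%, and 14.3% had an unadjusted p under 0.05. Fdft1, squalene synthase, gave -0.64 (SE 0.28, adjusted p = 0.313) and Acat2, the cytosolic thiolase of the first step, -0.56 (SE 0.25, adjusted p = 0.316). The CSB minus WT response was negative for 19 of 19 (median -0.20) and the DKO minus WT response for 16 of 19 (median -0.22). Without WT SD 41 the CSB response was negative for 15 of 19 (median -0.098) and the DKO response for 13 (median -0.13), and without WT KD 28 the DKO median was -0.11. These 3 contrasts share the 8 WT libraries, so they are not separate evidence of a direction.

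Between genotypes on SD, the lowest mean of the synthesis enzymes was that of WT. The 19 enzymes' mean log2 level was 9.67 ± 0.22 (SD, n = 4) in WT SD, 9.80 ± 0.24 (n = 6) in CSB SD, 9.93 ± 0.17 (n = 6) in INDY SD and 9.92 ± 0.10 (n = 4) in DKO SD. On KD it was 9.83 ± 0.15 (n = 4) in WT, 9.73 ± 0.19 (n = 5) in CSB, 9.74 ± 0.28 (n = 6) in INDY and 9.86 ± 0.10 (n = 5) in DKO. Group means thus differed by about the spread of single libraries. For 10 of 19 enzymes WT SD had the lowest of the 8 group means.

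Against WT on SD, 19 of 19 enzymes had a positive difference in INDY (median 0.20), 19 of 19 in DKO (median 0.15) and 18 of 19 in CSB (median 0.12), Tm7sf2 being the exception. The enzymes called numbered 0 in each, with smallest adjusted p values of 0.319, 0.0883 and 0.614, where 0.00468%, 5.92% and 0.136% of all genes were called. At an unadjusted p under 0.05 there were 4, 5 and 0 of 19 enzymes, beside 14.3%, 31.5% and 7.88% of all genes. The 3 comparisons share the 4 WT SD libraries, which are numbered 39 to 42 without a gap. An effect of handling in that order cannot be told apart from the group. Without WT SD 41, the library lowest for the enzymes, the counts were 19 in INDY, 16 in DKO and 13 in CSB, with medians of 0.13, 0.13 and 0.05. Without CSB SD 16 the CSB count was 15 and its median 0.07. Without the libraries of high forebrain level, which include 2 of the 4 DKO SD libraries, the DKO median was 0.31.

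Against WT on KD 3 of 19 enzymes were positive in INDY (median -0.11), 5 in CSB (median -0.07) and 12 in DKO (median 0.03). None was called, and the shares of all genes called were 0.00936% in INDY and in DKO and 0.00468% in CSB, with 6.59%, 6.39% and 8.23% at an unadjusted p under 0.05. Single libraries turned the INDY and DKO signs, while the CSB median stayed negative whichever library was left out. Without INDY KD 20 the INDY count was 13 and its median 0.05. Without WT KD 25 the CSB count was 9 and its median -0.0049, and without CSB KD 13 they were 2 and -0.14. The DKO count was 5 (median -0.03) without WT KD 12 and 7 (median -0.04) without DKO KD 24.

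Fdps, farnesyl diphosphate synthase, shows the size of these differences. It read 571, 835, 837 and 1008 in WT SD, and its lowest, median and highest values were 860.3, 1148 and 1328 in INDY SD and 733, 997 and 1283 in CSB SD. In DKO SD it read 968, 1023, 1176 and 1204, and in WT KD 821, 873, 1122 and 1171. Each of the other 4 groups held libraries above the WT SD range, and each overlapped it.
For INDY minus WT on SD the Fdps difference was 0.50 (SE 0.19, interval 0.12 to 0.88, adjusted p = 0.319), and for DKO minus WT on SD it was 0.45 (SE 0.21, adjusted p = 0.129). On KD, Fdps ran from 539 through 1020.2 to 1208 in INDY, read 743, 801, 826, 1262 and 1264 in CSB, and 916, 975, 1047, 1138 and 1142 in DKO. The lowest of all 40 libraries was INDY KD 20.

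Pmvk, phosphomevalonate kinase, was one of 3 members whose DKO SD and WT SD libraries did not overlap. Of the 30, 1 lay higher and 2 lower in DKO SD, beside 9.28% and 9.71% of all genes separated in these directions. It read 427, 435, 479.7 and 504 in WT SD and 542, 557, 587 and 590.2 in DKO SD, a difference of 0.30 (SE 0.12, adjusted p = 0.0883). The INDY SD libraries ran from 434 through 557 to 579.5, and those of CSB SD from 425 through 492 to 597. On KD it read 461, 536, 556 and 563 in WT and 456, 522, 528, 553 and 629 in DKO, which overlapped, as did INDY KD (361, 481 and 582 as lowest, median and highest) and CSB KD at 458, 468, 493, 579 and 636.

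Squalene synthase Fdft1, squalene epoxidase Sqle and the sterol methyl oxidase Msmo1 had DKO minus WT differences on SD of 0.49, 0.47 and 0.52, with adjusted p of 0.12, 0.14 and 0.107. For Msmo1 the WT SD libraries read 1152, 1429.6, 1761 and 2049 and the DKO SD libraries 2009, 2237, 2287 and 2444, so 1 WT library lay inside the DKO range. The remaining enzymes gave smaller values there, down to 0.05.

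Ebp is the sterol isomerase. Averaged over diets, its difference for CSB and DKO minus WT and INDY gave 0.15 (SE 0.06, interval 0.03 to 0.27, adjusted p = 0.148), where 0.796% of all genes were called and 18.8% had an unadjusted p under 0.05. Its values were 369, 378, 394 and 401 in WT SD, 389, 421, 435 and 474 in WT KD, 314, 391, 405 and 521 in DKO SD, and 441, 451, 462, 499 and 513 in DKO KD. In INDY the lowest, median and highest were 347, 401 and 425 on SD and 310.1, 401 and 492 on KD, and in CSB SD 389, 444 and 497. CSB KD read 402, 411, 442, 481 and 643. No pair of groups compared was without overlap.

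**Figure D2:**
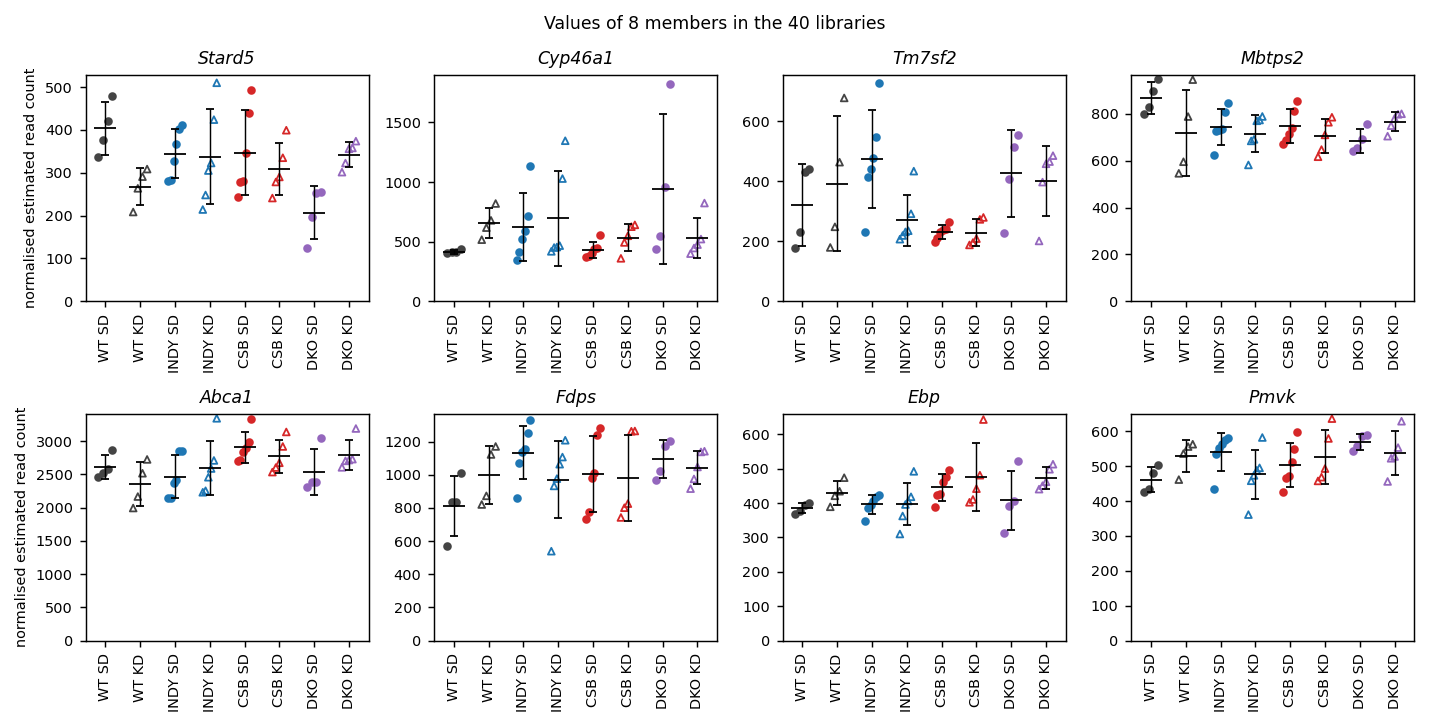
Normalised estimated read counts (y axis, from 0) of 8 members in the 8 groups (x axis), 1 point per library, with the mean and SD as bar and whiskers. Stard5 in DKO SD lies at 124 to 256, below the WT SD libraries at 336 to 479, while Tm7sf2 and Cyp46a1 spread widely within groups.

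Stard5 encodes a START domain protein that binds sterol. It was the only member called in any of the 20 comparisons, at chr7:83631959-83653127 (GRCm38, + strand, ENSMUSG00000046027). The WT SD libraries read 336, 377, 420.4 and 479. The DKO SD libraries read 124, 196, 252 and 256, with no overlap (9.71% of all genes). The fold was 2.00 lower in DKO (log2 -1.003, SE 0.23, interval -1.47 to -0.54, adjusted p = 0.0329 by limma), and 5.92% of all genes were called in the same comparison, 3.1% higher and 2.82% lower. Lowest was DKO SD 1, the library with few granule cell transcripts, and without it the difference was -0.78 with an adjusted p of 0.0671.

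On KD Stard5 read 208, 264, 291 and 309 in WT KD and 301, 323, 356, 358 and 374 in DKO KD, which overlapped at 1 library on each side. KD minus SD was 0.78 in DKO (SE 0.22, adjusted p = 0.587), with no overlap between the DKO libraries of the 2 diets (0.753% of all genes were separated in this direction), and -0.59 in WT (SE 0.23, adjusted p = 0.302), again with no overlap (4.68% of all genes). The test of the DKO minus WT diet response gave 1.37 (SE 0.32, adjusted p = 0.111), which did not pass. It passed without DKO SD 36 (1.48, adjusted p = 0.0407). The INDY and CSB libraries ranged from 214 to 510.0, the highest of all 40, with lowest, median and highest values of 280.5, 347 and 412 in INDY SD, 214, 314 and 510.0 in INDY KD and 244, 313 and 493 in CSB SD, and 241, 279, 290.3, 335 and 399 in CSB KD. DKO minus INDY on SD was -0.77 (adjusted p = 0.271, groups apart as for 0.632% of all genes) and DKO minus CSB on SD -0.75 (adjusted p = 0.248).

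The Stard5 call on SD rested on several choices. It was lost in 12 of 20 alternatives, over which the difference ran from -1.12 to -0.39 and the adjusted p from 0.0213 to 0.953. Cell makeup was not measured, but levels of marker lists moved with Stard5 over 40 libraries. Deviations of Stard5 from group means had r = 0.75 with the granule cell list and 0.69 with 7 Purkinje cell genes. They had r = -0.62 with the oligodendrocyte precursor list, -0.61 with the microglia list and -0.58 with the forebrain list. These points share libraries, values and scaling, so no p is given. With the granule cell level in the model the difference was -0.53 (adjusted p = 0.202), and with the forebrain level -0.71 (adjusted p = 0.168). On SD the mean log2 microglia level was 8.49 ± 0.18 (SD) in the 4 WT libraries and 9.33 ± 0.17 in the 4 DKO libraries. It ran from 8.30 to 8.70 in WT and from 9.15 to 9.54 in DKO, without overlap. With this level in the model the Stard5 difference was -0.39 (adjusted p = 0.953). Microglia level and genotype cannot be told apart in this comparison, so that value does not separate them. Stard5 also shares 1088 identical transcript bases with Il16 on the opposite strand, median value 2447 against 316 for Stard5. Whether counting used strand is not given in the sources used here, so reads of Stard5 and Il16 may not be separable. Gm45838, a tested gene with a median of 108, overlaps Stard5 on the same strand, where strand gives no separation.

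Cyp46a1, the 24-hydroxylase of neurons, had its highest value in DKO SD 1, where Stard5 was lowest. It read 403, 409.8, 412 and 439 in WT SD, 517, 618, 679 and 820.2 in WT KD, 438, 546, 956 and 1826 in DKO SD, and 399.8, 447, 475, 522 and 824 in DKO KD. The WT groups did not overlap, as for 5.13% of all genes in this direction, and 1 DKO SD library touched the WT SD range. In INDY the lowest, median and highest were 343, 553 and 1136 on SD and 419, 461 and 1347 on KD, in CSB SD 369, 423 and 552, and CSB KD read 360.4, 494, 549, 626 and 641. DKO minus WT on SD was 0.95 (SE 0.35, adjusted p = 0.0729) and passed without DKO SD 34 (1.24, adjusted p = 0.0455). DKO minus CSB on SD was 0.91 (SE 0.32, adjusted p = 0.276), and without DKO SD 1 it was 0.51 (adjusted p = 0.624). The diet response of DKO minus WT was -1.28 (SE 0.49, adjusted p = 0.171), and KD minus SD was 0.64 in WT and -0.64 in DKO.
Its deviations had r = 0.91 with the level of the 14 forebrain genes over 40 libraries, 0.88 without the 2 libraries farthest from the median. All values above 700 in the plot of Cyp46a1 against that level came from libraries above the limit of 6.20. With the forebrain level in the model DKO minus WT on SD was 0.24 (adjusted p = 0.393), and without the 12 libraries above the limit it was 0.24 (adjusted p = 0.423). These 12 include 2 of the 4 DKO SD libraries and 0 of the 4 WT SD libraries.

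**Figure D3:**
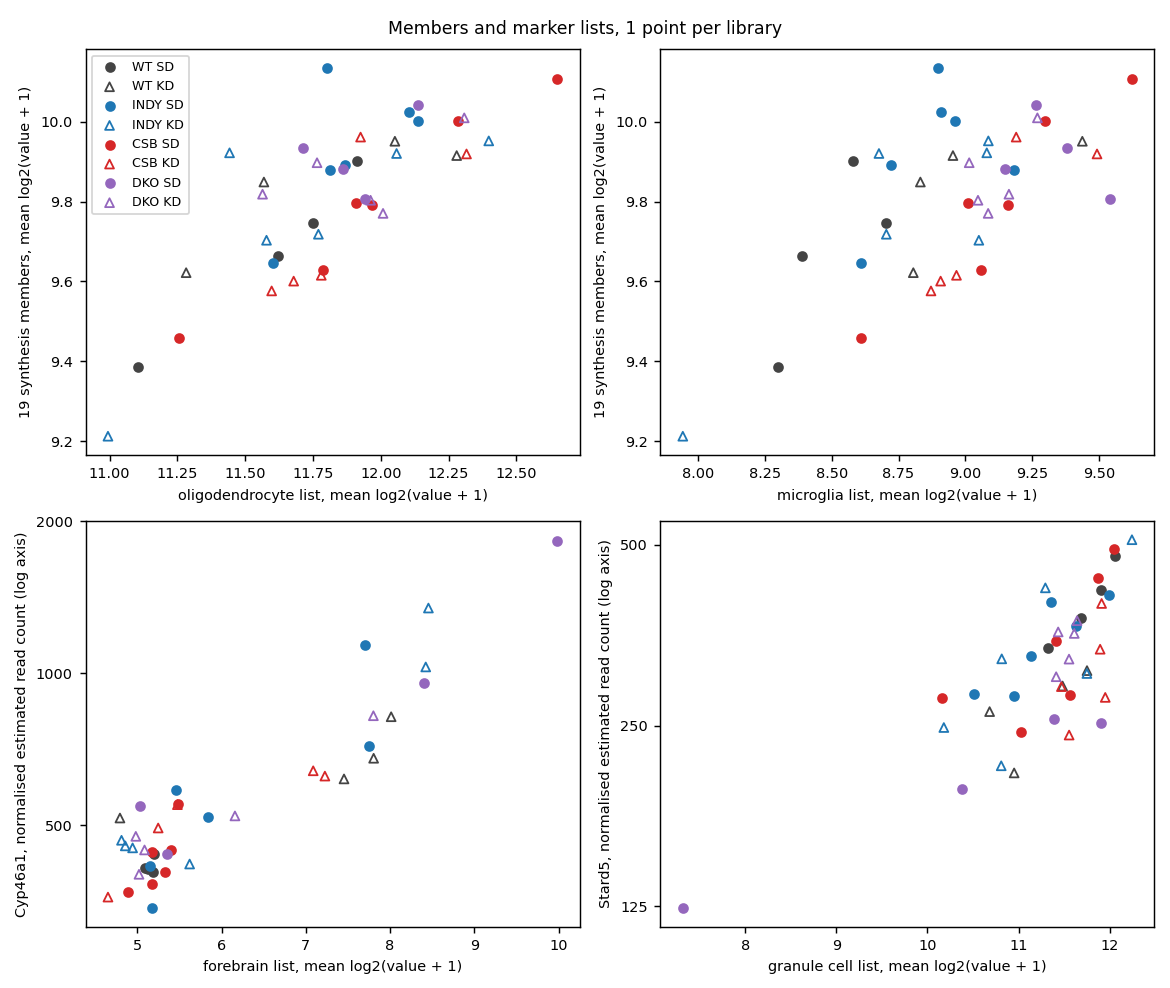
Levels of members (y axes) against mean log2(value + 1) of marker lists (x axes), 1 point per library, coloured by genotype and shaped by diet (circle SD, triangle KD). The upper panels show the mean of the 19 synthesis members, the lower panels Cyp46a1 and Stard5 on log axes, with DKO SD 1 at the far right for the forebrain list (9.98) and the far left for the granule cell list (7.31).

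Abca1 and Abcg1, pumps that load cholesterol onto lipoprotein particles, and Stard4, a sterol carrier, completed the transport group. Abca1 read 2464, 2523, 2576 and 2866 in WT SD, 1993, 2165, 2516 and 2723 in WT KD, 2316, 2377, 2384 and 3050.3 in DKO SD and 2604, 2702, 2714, 2728 and 3188 in DKO KD. In CSB SD the lowest, median and highest were 2696, 2868 and 3328, in INDY SD 2142, 2390.1 and 2856 and in INDY KD 2229.7, 2521 and 3341, while CSB KD read 2533, 2601, 2673, 2918 and 3136. CSB and DKO minus WT and INDY over both diets was 0.14 (SE 0.05, interval 0.03 to 0.24, adjusted p = 0.143). Abcg1 and Stard4 had no unadjusted p under 0.05 in any of the 20 comparisons.

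Among the SREBP control genes, Mbtps2, the site-2 protease, gave the smallest p. It read 797, 829.1, 897 and 947 in WT SD. In DKO SD it read 641, 653, 691 and 755, with no overlap (9.71% of all genes). The difference was -0.34 (SE 0.12, interval -0.59 to -0.09, adjusted p = 0.0665). WT KD read 546, 595, 788 and 945 and DKO KD 704, 749, 779.9, 798 and 799.7. In INDY the lowest, median and highest were 623, 733 and 846 on SD and 582, 730.3 and 788 on KD, in CSB SD 672, 726 and 855, and CSB KD read 617, 647, 709.7, 764 and 785. WT KD spanned nearly the full range of the other groups.
For Srebf2 the DKO minus WT difference on SD was 0.34 (SE 0.15, adjusted p = 0.112). Scap, Mbtps1, Insig1 and Insig2 had no unadjusted p under 0.05 in any of the 20 comparisons.

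A feature that the diet and genotype labels do not carry was the joint movement of the enzymes from library to library. Over 40 libraries, deviations from group means had a median r of 0.56 over the 171 pairs of synthesis members, against -0.01 over all pairs of tested genes. An r of at least 0.8 was reached by 21.6% of the synthesis pairs and by 0.324% of all pairs. Within SD libraries the median was 0.57 and within KD libraries 0.63. Without INDY KD 20, the lowest library for the enzymes, it was 0.51, and without DKO SD 1 it was 0.56. The points share libraries and scaling, and no p is given.

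The tightest pairs were Hmgcs1 with Sqle (0.97), Fdft1 with Msmo1 (0.96) and Acat2 with Fdps (0.95), which join genes of the early, squalene and late steps. Median r was 0.67 among the early, 0.43 among the squalene and 0.43 among the late enzymes, with a lowest value of -0.23 in the late group. Nsdhl, Idi1, Cyp51, Mvk and Pmvk stood close to them. Lss, lanosterol synthase, with Fdft1 had 0.41, Tm7sf2 with Fdft1 0.37, and Ebp with Fdft1 -0.18. Srebf2 followed Hmgcs1 at 0.77, and Insig1 followed Idi1 at 0.84. On the other side, Stard5 with Msmo1 had -0.71, Abcg1 with Hmgcs1 -0.56 and Mbtps1 with Acat2 -0.69, while Stard5 and Abca1 moved together at 0.74. Over the 15 pairs of the SREBP control genes the median r was -0.14.

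**Figure D4:**
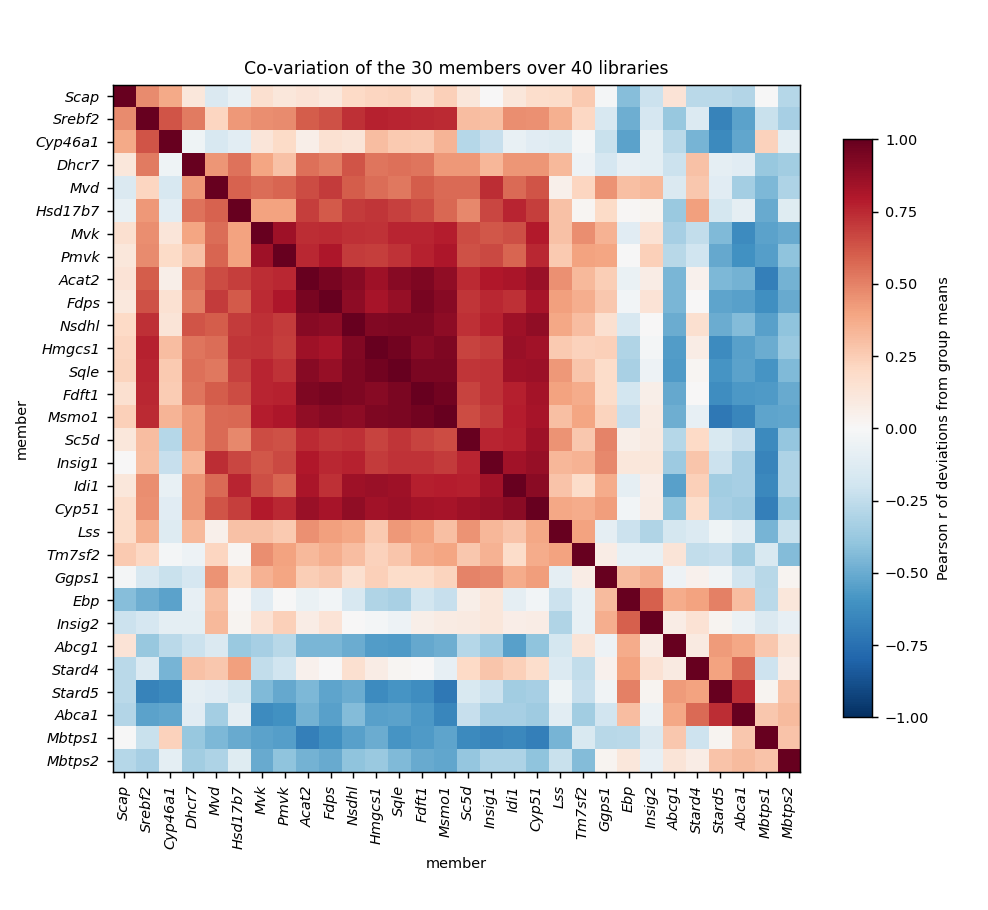
Pearson r (colour) between deviations from group means for each pair of the 30 members over 40 libraries, ordered by likeness. A block from Acat2 to Cyp51, made of enzymes and Insig1, is strongly positive, and Stard5, Abca1, Abcg1, Mbtps1 and Mbtps2 are mostly negative against it.

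Oligodendrocyte and microglia transcripts moved with the enzymes, while the list of astrocyte and Bergmann glia genes had r = -0.12 (Spearman -0.22). The mean of the 19 enzymes had r = 0.81 (Spearman 0.74) with the level of 14 oligodendrocyte genes such as Mbp and Mog, 0.79 without the 2 farthest libraries, 0.88 within SD and 0.76 within KD. With 10 microglia genes such as Cx3cr1, P2ry12 and C1qa it had r = 0.77 (Spearman 0.68), 0.65 without the 2 farthest, 0.70 within SD and 0.82 within KD. It was -0.35 with granule cell genes (Spearman -0.53, and -0.61 without the 2 farthest), -0.38 with Purkinje cell genes (Spearman -0.57, and -0.64 without the 2 farthest), 0.41 with oligodendrocyte precursor genes, 0.05 with forebrain genes and 0.07 with 16 liver genes. In bulk RNA, fewer cells of a type and less RNA per cell cannot be told apart.
The summed microglia level ran from 4783 to 6142 in WT SD, 5943 to 8588 in INDY SD, 5989 to 11707 in CSB SD and 8698 to 10712 in DKO SD. The summed oligodendrocyte level ran from 104977 to 185019 in WT SD, 160544 to 228494 in INDY SD, 115489.9 to 335439.6 in CSB SD and 153201 to 221679 in DKO SD. Both lists thus had their lowest library of these SD groups in WT SD, as the enzymes did, and their part in the enzyme differences was not tested beyond adding the level to the model. The values that follow are for the microglia level alone, and medians with the oligodendrocyte level as a covariate are not given here. With the microglia level as a covariate the member median for DKO minus WT on SD was -0.16 and for CSB minus WT on SD -0.21, in place of 0.09 and 0.09.
With that covariate 7 members were called for CSB and DKO minus WT and INDY, where 3.46% of all genes were called: Hmgcs1 -0.32, Fdft1 -0.32, Msmo1 -0.29, Sqle -0.29, Nsdhl -0.26, Srebf2 -0.22 and Abca1 0.27. The microglia list itself differs between these genotypes, so this model takes away part of a genotype difference.

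Tm7sf2 is one of the sterol C14 reductases, and its values held a gap. It read from 177 to 291 in 23 libraries and from 397 to 727 in 17, with none between, a step of 1.36-fold where the next widest was 1.22-fold. It read 177, 232, 432 and 439 in WT SD, 179, 248, 463 and 677 in WT KD, 228, 408, 515 and 553 in DKO SD, and 201, 397, 458, 465 and 485 in DKO KD. The lowest, median and highest were 232, 460.2 and 727 in INDY SD, 207, 233 and 433 in INDY KD, and 198, 233 and 263 in CSB SD, and CSB KD read 188, 196, 209, 273 and 279. On SD 2 of 4 WT, 5 of 6 INDY, 0 of 6 CSB and 3 of 4 DKO libraries lay above the gap, and on KD 2 of 4 WT, 1 of 6 INDY, 0 of 5 CSB and 4 of 5 DKO.

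Neighbouring genes had the same libraries high. Tm7sf2 lies at chr19:6062821-6068373 on the - strand of GRCm38, and 49 other tested genes lie within 500 kb. Of these, 10 had r of 0.86 to 0.95 with Tm7sf2: Gm10814, Syvn1, Mrpl49, Fau, Znhit2, Vps51, Zfpl1, Sac3d1, Snx15 and Arl2, which lie together at chr19:6012620-6141548, a stretch of 129 kb. In each of the 10 the 17 highest libraries were the same 17 as for Tm7sf2, with highest-to-lowest ratios from 3.84 to 13.3. The other 39 had r from -0.34 to 0.55. One tested gene elsewhere, Gm9843 on chromosome 16, reached 0.93, and its 402 bases are identical to Fau. The next highest outside was 0.65.

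**Figure D5:**
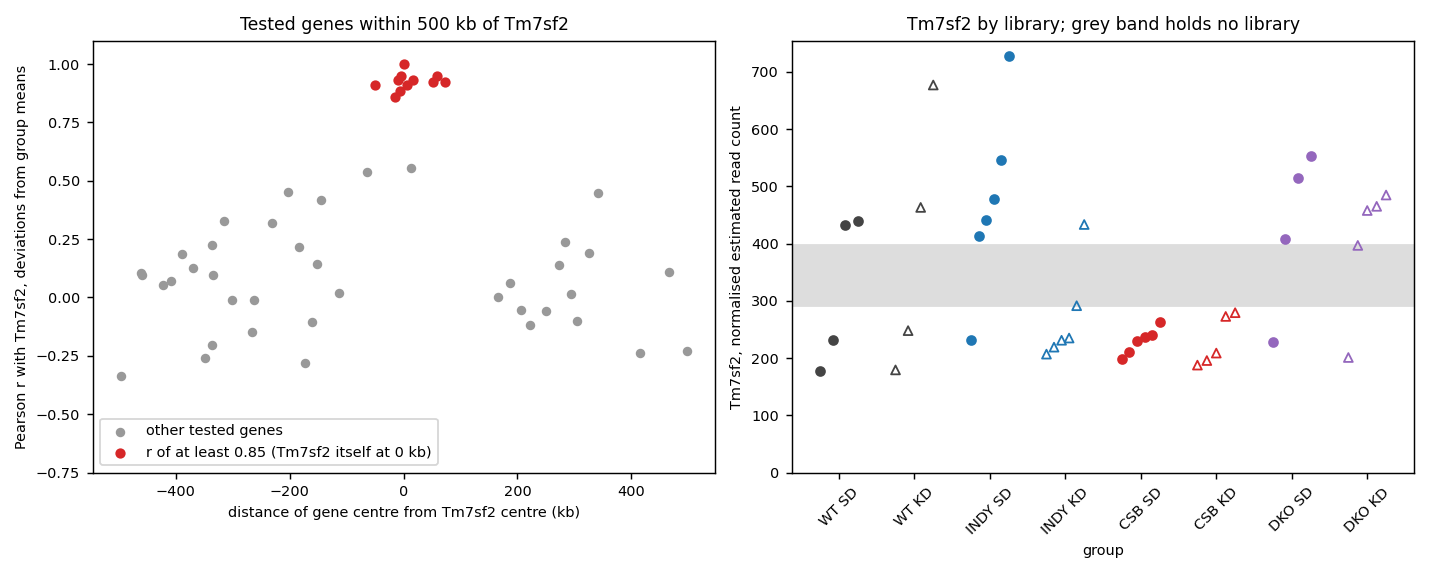
Left, Pearson r with Tm7sf2 over 40 libraries (y axis) of the tested genes within 500 kb against distance from its centre (x axis, kb), where 10 neighbours lie at 0.86 to 0.95 and the other genes at 0.55 or below. Right, Tm7sf2 by group, 1 point per library, with the empty range from 291 to 397 in grey.

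The differences of Tm7sf2 were large and so were their errors. KD minus SD in INDY was -0.78 (SE 0.28, adjusted p = 0.981). DKO minus CSB was 0.82 on SD (SE 0.32, adjusted p = 0.293) and 0.76 on KD (SE 0.31, adjusted p = 1). No member was called in these 3 comparisons, where 0%, 0.00468% and 0.0281% of all genes were. For Tm7sf2, INDY and DKO minus WT and CSB over both diets was 0.44 (SE 0.16, adjusted p = 0.511). Tm7sf2 also shares 532 identical transcript bases with Vps51.

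Other genes of the pathway were taken from a list of 33, all tested, with Npc1 and Fasn among them. In DKO minus WT on SD 3 of 33 rose and 0 fell, beside 5.92% of all genes called, in DKO minus INDY on SD 1 rose (0.0608% of all genes called, 0.0468% of all genes higher, and 6.16% at an unadjusted p under 0.05), and in CSB and DKO minus WT and INDY over both diets 2 rose (0.796%). None was called in the other 17 comparisons. Their median difference in DKO minus WT on SD was 0.10, close to the 0.09 of the members and above the 0.00 of all genes.

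Ch25h, cholesterol 25-hydroxylase, was higher by 1.15 (SE 0.20, interval 0.75 to 1.55, adjusted p = 0.000569) in CSB and DKO than in WT and INDY over both diets, a call kept in 51 of 51 alternatives. Its values are low: 2.18, 4.18, 8.84 and 11.3 in WT SD and 13.9, 16.8, 25.8 and 40.6 in DKO SD. These groups did not overlap, as for 9.28% of all genes in this direction. Their difference was 1.80 (SE 0.43, adjusted p = 0.0332). DKO minus INDY on SD was 2.01 (SE 0.40, adjusted p = 0.0247), the INDY SD libraries running from 1.93 through 6.38 to 7.97. CSB SD ran from 10.6 through 20.6 to 34.5. On KD it read 11.0, 12.7, 13.6 and 28.2 in WT, 9.79, 10.7, 15.4, 16.1 and 21.6 in CSB and 11.7, 15.8, 15.9, 17.5 and 20.0 in DKO, which overlapped, while INDY KD ran from 3.44 to 13.2. Against WT on KD the differences were -0.10 in CSB (adjusted p = 0.96), 0.06 in DKO (adjusted p = 0.981) and -0.98 in INDY (adjusted p = 0.615). The call of DKO minus WT on SD was lost in 12 of 20 alternatives and that of DKO minus INDY on SD in 9 of 22.
Apoe, which encodes an apolipoprotein of the brain's lipoprotein particles, was higher by 0.34 (SE 0.06, adjusted p = 0.000795) in CSB and DKO than in WT and INDY over both diets and by 0.55 (SE 0.13, adjusted p = 0.0329) in DKO minus WT on SD, a call lost in 10 of 20 alternatives. Against WT on KD its differences were 0.19 in CSB (adjusted p = 0.671), 0.27 in DKO (adjusted p = 0.776) and -0.15 in INDY (adjusted p = 0.949). WT SD read 16292, 16900.3, 17507 and 17813 and DKO SD 24238, 25091, 25395 and 25445, with no overlap (9.28% of all genes). Fads2, a fatty acid desaturase, rose by 0.45 (SE 0.14, adjusted p = 0.0494) in DKO minus WT on SD, from 1862, 2089, 2296 and 2527 to 2346, 3155, 3211 and 3348, with an overlap of 1 library on each side. The Fads2 call was lost in 15 of 20 alternatives and its sign turned in 1, with the microglia level as a covariate (-0.039). With that covariate Apoe gave 0.15 (adjusted p = 0.0994) for CSB and DKO minus WT and INDY, and the microglia list was higher in the same groups, as given above.

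Several members share bases with other genes, which may have moved reads between them. Fdft1 overlaps Ctsb on the opposite strand with 774 identical transcript bases, and Ctsb, a lysosomal protease gene, has a median of 10272 against 1707 for Fdft1. Acat2 is 98.3% identical to Acat3 (median 53.6) over 1441 bases and 99.1% identical to Tcp1 (median 5214) over 435. Dhcr7, with a median of 365, is 98.6% identical over 222 bases to Gm48764 (median 1077), among other noncoding genes. Mbtps2 shares 2867 identical bases with Yy2 (median 31.3). Idi1 is identical to the pseudogene Gm13502 over 684. The Fdps pseudogenes found by similarity were listed at a median of 0.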

How the data were processed

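Each value in the deposited table is a signal: the authors' normalised estimate of the reads of 1 gene in 1 library. Bowtie2, Salmon, DESeq2 and build mm9 are named in the submitters' processing notes, which give neither versions nor order. Raw counts could not be recovered, so depth is unknown and no counting interval is given. Positions and symbols came from GENCODE M21 on GRCm38 by gene ID (54097 of 54331 matched), and do not describe the authors' alignments.

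The scale was log2(value + 1), and limma 3.58.1 was run in R 4.3.3 (trend and robust variances, 1 mean per group, 8 groups in 1 fit, no covariate). Tested genes read 10 or more in 4 or more libraries. A call is a two-sided p under 0.05 after Benjamini-Hochberg adjustment over the genes of 1 of 20 comparisons. The fit was tested on simulated data. Transcript similarity used minimap2 2.31.

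The members, the list of 33 other pathway genes, the marker lists, roles and comparisons were chosen with earlier results of these data known. Full values were given for members called in any comparison, and then for those with the smallest p until there were 8. Fdft1, Sqle, Msmo1, Acat2 and Srebf2 were added after their values were seen. Alternatives were the pseudocount, the filter, scaling, variance model, covariates, groups fitted and libraries left out. Lists of choroid plexus, endothelial and blood genes had r of -0.25, 0.30 and 0.03 with the enzyme mean.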

Additional observations from a re-analysis of the deposited data

Results flagged for a closer look

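In 96 sets of values (a gene or the enzyme mean in 1 group), 7 held a library far from the others of its group. Chance alone gives this in about 5% of such sets. Cyp46a1 read 824 in DKO KD 47 against 399.8 to 522 in the other 4, and this library lies above the forebrain limit. Tm7sf2 read 433.4 in INDY KD 45 against 207 to 291, the only INDY KD library above the gap. Abca1 read 3050 in DKO SD 34 against 2316 to 2384, and 3188 in DKO KD 23 against 2604 to 2728. Pmvk read 433.6 in INDY SD 32 against 535 to 579.5. Ch25h read 28.23 in WT KD 12 against 11.0 to 13.6. The mean log2 level of the 19 enzymes was 9.212 in INDY KD 20 against 9.70 to 9.95. This library had the lowest microglia level (7.94) and oligodendrocyte level (10.99) of all 40, and the highest granule cell level (12.25).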

How the results depend on the processing

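No paired analysis was possible because each library number occurs once in the series. Depth is unknown, so precision rests on the 4 to 6 libraries of a group. Of 550 counts of members called under alternatives, 535 stayed within 1.5 times. Only 1 member was called, in DKO minus WT on SD, so most of these counts set 0 against 0 and could hardly move. Of 550 member medians 544 moved by less than 0.18, the spread between libraries. That limit is wider than the member medians given above for DKO and CSB minus WT on SD. A sign could thus turn within it. The 1 member called in DKO minus WT on SD became 0 with the forebrain, liver, oligodendrocyte, microglia or granule cell level as a covariate, without the libraries of high forebrain level, and when only the groups compared were fitted. It ranged from 0 to 2 when single libraries were left out, being 0 without DKO SD 1, DKO SD 35, WT SD 39, WT SD 41 or WT SD 42 and 2 without DKO SD 34. The diet response of DKO minus WT ranged from 0 to 1, being 1 without DKO SD 36. With the microglia covariate, chosen like the granule cell covariate after seeing the data, 7 members were called for CSB and DKO minus WT and INDY. Member medians then were -0.21 for CSB minus WT on SD, -0.16 for DKO minus WT on SD and -0.12 for KD minus SD in WT. For the diet responses of CSB, DKO and INDY minus WT they were 0.077, 0.17 and 0.048. In DKO minus WT on SD it turned Fads2 to -0.039, Fdps to -0.25 and Pmvk to -0.040. The cause was not tested. Of 902 alternatives for named genes, 837 kept their direction and call, 59 lost the call and 3 gained one. Most of these results had no call to lose, so the total does not measure how firm the calls were. In DKO minus WT on SD the call was lost in 12 of 20 for Stard5 and Ch25h, 10 of 20 for Apoe and 15 of 20 for Fads2. For Ch25h it was lost in 9 of 22 in DKO minus INDY on SD. In CSB and DKO minus WT and INDY it was lost in 0 of 51 for Ch25h and 1 of 51 for Apoe. Counts of enzymes with a positive difference were rerun after seeing the data. Either a single library was left out, or all libraries of high forebrain level were. The counts stayed within 1.5 times in 271 of 333 cases.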
